A study of Homo sapiens with 8 samples.

Results

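The 10 genes described here encode the machinery of translesion DNA synthesis, and they were taken by symbol from the 49733 gene IDs of the tables: the Y-family polymerases POLH, POLK, POLI and REV1, the polymerase zeta genes REV3L and MAD2L2, the ubiquitin ligase RAD18 with its conjugating partners UBE2A and UBE2B, and the X-family polymerase POLL. All 10 were found, and all 10 passed the filter on low counts that left 14746 genes for testing. HepG2, a human hepatocellular carcinoma cell line, had been given benzo[a]pyrene (BaP) at 2 µM in 0.5% DMSO, or 0.5% DMSO alone as vehicle, for 12 h or 24 h. Poly-A RNA was sequenced from 2 libraries in each of these 4 groups, from separate experiments per the labels' protocols. Every library comes from this 1 line in culture.

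BaP is a polycyclic hydrocarbon of smoke and char that cytochrome P450 enzymes turn into diol epoxides, which attach to guanine and stall replicative polymerases. When a fork stalls, RAD18 working with UBE2A or UBE2B attaches ubiquitin to the sliding clamp PCNA, and the marked clamp recruits a translesion polymerase that copies across the damage. Polymerases eta (POLH), kappa (POLK), iota (POLI) and REV1 insert bases opposite lesions, REV1 also serves as a docking platform, and polymerase zeta, built from the catalytic subunit REV3L and the adaptor MAD2L2, extends the mismatched end. POLH is a known target gene of p53, and POLK is known for accurate bypass of BaP adducts at guanine.

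In brief, POLH was the only member that passed the test at either time, and it passed at both, against 3.41% and 3.11% of all genes that passed as higher at 12 h and 24 h. It was 1.76-fold higher with BaP at 12 h and 1.63-fold higher at 24 h. The 24 h call was lost without BaP replicate 2, without either vehicle replicate and after thinning to the shallowest library. UBE2A, UBE2B and POLI had higher means at 12 h without passing, and POLK, RAD18, MAD2L2, REV1, REV3L and POLL lay within 0.26 of 0 on the log2 scale at both times. The kappa polymerase, the ligase RAD18 and both zeta genes thus gave no call in either BaP comparison.

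The 250 bases before the annotated start of 3 members are printed to show what stands upstream of the gene that rose and of members with the most and the fewest matches to the core element of the aryl hydrocarbon receptor (AHR), the receptor that BaP binds. The letters searched were GCGTG on both strands, in RefSeq windows of GRCh38.p14, and matches are in capitals (CACGC where the match lies on the other strand). The POLH window is chr6:43575935-43576184 on the plus strand, with matches 149 and 126 bases before the start. The REV1 window is chr2:99490018-99490267 on the minus strand, with matches 104 and 43 bases before the start. The UBE2A window, chrX:119574313-119574562 on the plus strand, holds no match.
POLH: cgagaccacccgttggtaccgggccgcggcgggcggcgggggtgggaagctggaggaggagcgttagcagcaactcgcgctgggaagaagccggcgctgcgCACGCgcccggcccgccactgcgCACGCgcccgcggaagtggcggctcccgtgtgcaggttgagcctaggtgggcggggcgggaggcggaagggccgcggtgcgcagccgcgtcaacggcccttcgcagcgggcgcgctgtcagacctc
REV1: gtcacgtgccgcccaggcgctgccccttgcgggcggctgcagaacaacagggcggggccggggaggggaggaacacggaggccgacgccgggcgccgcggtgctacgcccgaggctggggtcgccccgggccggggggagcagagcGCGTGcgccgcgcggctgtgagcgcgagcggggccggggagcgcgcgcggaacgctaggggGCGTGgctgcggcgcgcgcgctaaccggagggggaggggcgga
UBE2A: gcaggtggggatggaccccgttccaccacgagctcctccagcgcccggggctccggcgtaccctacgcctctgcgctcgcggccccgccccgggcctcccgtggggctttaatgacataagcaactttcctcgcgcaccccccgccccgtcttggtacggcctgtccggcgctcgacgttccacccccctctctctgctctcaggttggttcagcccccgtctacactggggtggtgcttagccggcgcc
The core was present in a window of 7 of the 9 members that have one, and in 32.2% of all 35116 windows of the same length. These figures are unlike, since a member counts with a match in any of its windows. The windows were also not matched for GC content, so no excess in the members is read from them. RAD18 was the other member without the core. REV3L, MAD2L2 and POLL have more than 1 window each, and the GC content of the windows printed was 76.0% for POLH, 80.8% for REV1 and 70.0% for UBE2A. At least 2 matches, as in POLH and REV1, occurred in 10.2% of all windows. No member window held the half-site consensus of p53, which 5.57% of all windows held. A match is a run of letters, not a shown binding site, and UBE2B has no window in the table.

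The libraries held 2592272 to 16533490 assigned reads, and the shallowest was replicate 1 of BaP at 24 h. Levels of a gene across libraries are given in CPM, which are read counts scaled to library size with TMM factors. The spread between replicates, as the SD of log2 differences over 7299 well-expressed genes, was 0.17 for BaP at 12 h, 0.32 for BaP at 24 h, 0.25 for vehicle at 12 h and 0.18 for vehicle at 24 h. Exposure was visible in CYP1A1, the P450 that AHR induces and that activates BaP, which went from a mean of 5.03 to 1010 CPM at 12 h and from 1.56 to 341 CPM at 24 h. CDKN1A, the p53 target that arrests the cell cycle, went from 97.4 to 395 CPM and from 118 to 430 CPM. All 9 hepatocyte markers listed were expressed, with summed levels of 19200 to 24300 CPM in the BaP libraries and 25100 to 33800 CPM in the vehicle libraries. APOB made up most of that gap, with means of 11500 against 6550 CPM at 12 h and 13600 against 8140 CPM at 24 h, while HNF4A had means of 224 with vehicle and 232 CPM with BaP at 12 h. Of the fibroblast markers DCN and LUM were at 0 in every library, of the leukocyte markers CD163 was at 0 and of the endothelial markers KDR was at 0. Other markers of these lists had reads, up to 42.4 CPM for COL1A1, 29.1 for PDGFRB, 56.1 for CD68 and 3 for CDH5. PECAM1 was not matched by symbol. The summed fibroblast markers ran from 20.0 to 31.5 CPM with BaP and 35.3 to 59.9 CPM with vehicle, the leukocyte markers from 588 to 960 and 551 to 988 CPM, LYZ making up most of it, and the endothelial markers from 0.375 to 1.07 and 0.699 to 3.19 CPM. The part of these shifts in the results was not tested. In bulk RNA, fewer cells with a transcript and less of it per cell cannot be told apart.

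Levels between genes were compared on a length-corrected scale, the share of all transcript molecules that a gene holds, written as TPM. The adaptor MAD2L2 was the most abundant member, at a mean of 55.0 TPM over the 8 libraries and a range of 46.1 to 71.4. UBE2A followed at 46.5 (30.3 to 68.8) and UBE2B at 30.7 (15.7 to 37.8), so the deposited levels of the adaptor and the conjugating enzymes had higher means than those of every polymerase. POLL, which fills gaps in excision repair and end joining, had a mean of 16 and REV1 one of 10.7. POLH stood at 7.54, RAD18 at 4.05, POLK at 3.24 and POLI, the least abundant, at 1.58 (0.911 to 1.98). Among neighbours in this order, UBE2A over UBE2B, POLL over REV1, POLH over RAD18 and POLK over POLI held in 8 of 8 libraries. MAD2L2 was above UBE2A in 7, UBE2B above POLL in 7, REV1 above POLH in 7 and RAD18 above POLK in 6, so these neighbours did not separate in every library.

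REV3L, UBE2A, UBE2B, RAD18, REV1 and POLK need a separate reading on that scale. The listed mean of REV3L was 11.1, but 54.0% to 69.1% of the molecules came from 1 transcript (ENST00000229465) that GENCODE 29 places under the long noncoding gene FLJ22447. Without it the mean was 4.33 (2.62 to 6.76), below POLH in 7 of 8 libraries and above RAD18 in 5. By read counts the same transcript held 12.4% to 19.3% of REV3L. For UBE2A, a transcript that GENCODE 29 does not list (ENST00000404672) held 57.2% of the counts and 64.9% to 79.1% of the molecules. Without it the UBE2A mean was 11.7 TPM (9.15 to 14.8), below UBE2B and POLL in 8 of 8 libraries, so its high rank rests on that transcript. For UBE2B, the noncoding transcript UBE2B-202 held 9.91% to 63.6% of the molecules and the main coding one, UBE2B-201, 11.9% to 30.8%. The rank of UBE2B includes this noncoding form, and no UBE2B mean was taken without it.

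**Figure D1:**
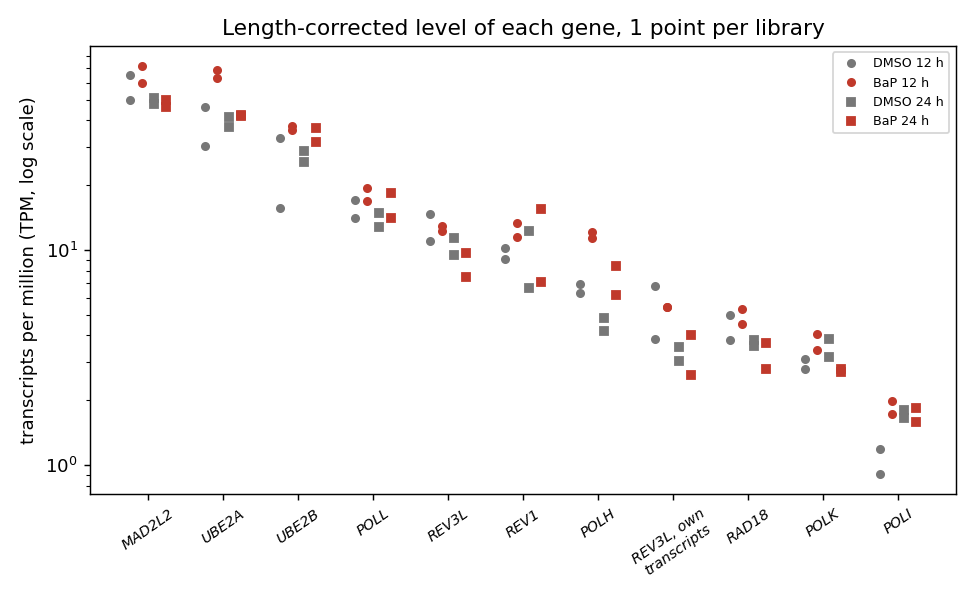
Length-corrected level (TPM, log axis) of each gene in each of the 8 libraries, circles for 12 h, squares for 24 h, grey for DMSO and red for BaP. MAD2L2 is highest and POLI lowest, and the entry for REV3L without the transcript placed under another gene falls from a mean of 11.1 to 4.33.

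POLH (ENSG00000170734, chromosome 6) encodes DNA polymerase eta, which bypasses ultraviolet photoproducts and is lost in xeroderma pigmentosum variant. The vehicle libraries at 12 h gave 20.0 and 19.6 CPM, and the BaP libraries 36.5 and 33.1 CPM. At 24 h the vehicle libraries gave 14.8 and 13.9 CPM, and the BaP libraries 24.8 and 22.9 CPM. Both BaP libraries were above both vehicle libraries at each time, and every pair of replicates lay close together. The log2 fold change was 0.81 ± 0.14 (SE, 95% interval 0.52 to 1.1, n = 2 per group) at 12 h, with an adjusted p of 0.00093 from the quasi-likelihood test of edgeR, adjusted by Benjamini-Hochberg over all genes tested as everywhere below. At 24 h it was 0.71 ± 0.16 (0.37 to 1.04), with an adjusted p of 0.015. At 12 h 3.41% of all genes passed in this direction, and at 24 h 3.11%, and the 1 member of 10 is read as a single gene, not as a property of the set.

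The response of POLH at 24 h minus that at 12 h was -0.11 ± 0.21 on the log2 scale (-0.55 to 0.33, adjusted p = 0.92), so the interval spans a smaller and a larger response at the later time. The level itself was lower at 24 h in both arms, from 19.8 to 14.3 CPM in vehicle cells (log2 -0.46 ± 0.15, adjusted p = 0.12) and from 34.8 to 23.8 CPM in BaP cells. The BaP libraries at 24 h therefore lay only a little above the vehicle libraries at 12 h. Among the alternative settings, leaving out the REV3L transcript placed under FLJ22447 did not alter the POLH counts and could not test its call. At 12 h the call held in all 11 alternative settings run, with log2 values from 0.74 to 0.99 and adjusted p from 3.2e-05 to 0.031. At 24 h it held in 7 of 11, with log2 values from 0.49 to 0.78 and adjusted p from 0.008 to 0.27: the call was lost without BaP replicate 2 (0.08), without vehicle replicate 1 (0.13), without vehicle replicate 2 (0.13) and when all libraries were thinned to the shallowest (0.27).

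**Figure D2:**
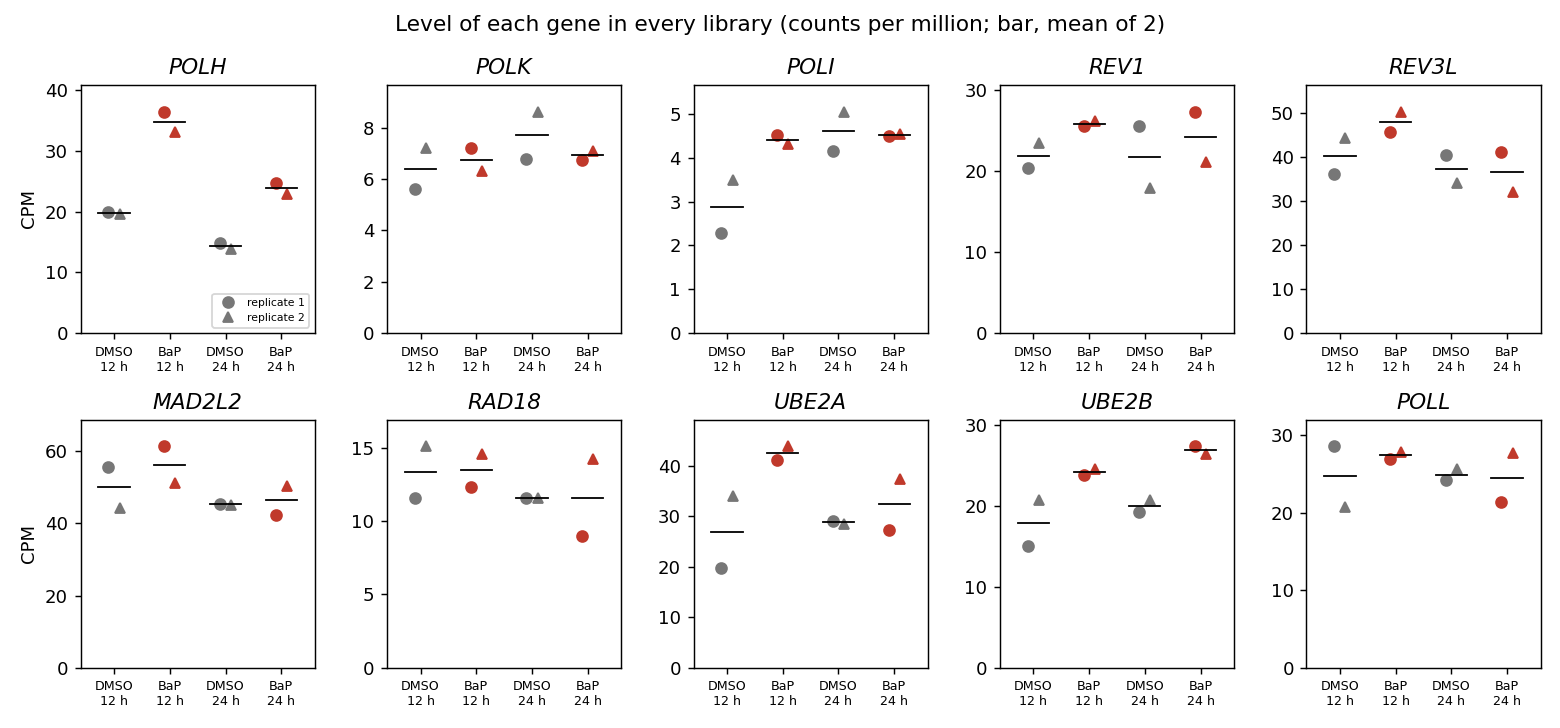
CPM of each of the 10 genes in every library (circles, replicate 1; triangles, replicate 2; bar, mean of 2), each panel on its own axis from 0. POLH is the gene whose BaP points clear the vehicle points by the widest margin at both times, at 36.5 and 33.1 against 20.0 and 19.6 CPM at 12 h.

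Nearly all POLH reads belonged to 1 coding transcript, POLH-202 of 3540 nucleotides, which held 96.1% of the counts over all libraries and 92.7% to 100% in each. The rise in summed POLH counts was thus a rise in this transcript, at 19.8 and 18.9 CPM in vehicle and 36.5 and 30.7 CPM in BaP at 12 h. The neighbouring gene GTPBP2 lies on the opposite strand and its exons overlap those of POLH. Whether reads were counted by strand is not stated in the labels or files. GTPBP2 itself had a log2 fold change of 0.10 ± 0.12 at 12 h (adjusted p = 0.75) and 0.25 ± 0.13 at 24 h (adjusted p = 0.28). POLH counts were fractional in 8 of 8 libraries, so RSEM shared some of its reads with other loci.

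By Pearson correlation of log2 CPM over the 8 libraries, among 10057 named genes with a mean of at least 5 CPM, the genes most like POLH were SFN (r = 0.987), RETSAT (0.986), SLC6A6 (0.985), ICOSLG (0.979) and PIDD1 (0.975). SFN, which encodes the 14-3-3 sigma protein of the damage arrest, had means of 51.7 CPM in vehicle and 156 CPM in BaP at 12 h, then 34.0 and 77.9 CPM at 24 h. PIDD1, a death domain protein that activates caspase-2, had means of 49.2 and 83.3 CPM, then 41.5 and 66.8 CPM. RETSAT, a retinol saturase, went from 59.6 to 80.7 and from 52.4 to 68.9 CPM. The taurine transporter SLC6A6 went from 59.5 to 97.7 and from 41.3 to 65.4 CPM, and the costimulatory ligand ICOSLG from 21.3 to 35.8 and from 17.4 to 25.3 CPM. All 5 share with POLH both a higher mean under BaP and lower means at 24 h than at 12 h in each arm. The 8 libraries share the group structure, so the correlation is a description of these libraries.

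POLK encodes polymerase kappa, whose active site accommodates bulky adducts in the minor groove. Vehicle libraries gave 5.61 and 7.20 CPM and BaP libraries 7.21 and 6.31 CPM at 12 h. At 24 h the values were 6.79 and 8.63 CPM with vehicle and 6.75 and 7.09 CPM with BaP. The groups overlapped at both times. Log2 fold changes were 0.07 ± 0.22 (-0.39 to 0.53, adjusted p = 0.92) and -0.11 ± 0.24 (-0.61 to 0.40, adjusted p = 0.89). The upper bounds lie below the 0.81 and 0.71 seen in POLH, but they overlap the POLH intervals (0.52 to 1.1 and 0.37 to 1.04). The difference between the genes was not tested. POLK was counted at only 18 to 106 reads per library, and of its transcripts with at least 10% of the counts none was a full coding one: POLK-211 is a retained-intron form (24.5%) and POLK-207 (13.3%), POLK-203 (11%) and POLK-215 (10.7%) are marked for nonsense-mediated decay. The rest of the counts lay in transcripts under 10% each, so coding forms are not shown to be absent. The shares varied widely between libraries, from 0 to 34.4% for POLK-203 and 0 to 29.3% for POLK-207. POLK-215 was at 0 in every BaP library and in vehicle replicate 2 at 24 h. It held 28.5%, 23.8% and 19.3% in the other vehicle libraries, on at most 24.47 counts. The division of POLK reads among these transcripts did not pass its test at either time.

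POLI, polymerase iota, is a close relative of POLH with low fidelity opposite thymine. It was counted at 12 to 68 reads per library, the fewest among the members. Vehicle libraries gave 2.29 and 3.49 CPM at 12 h and BaP libraries 4.53 and 4.31 CPM, with no overlap. At 24 h the values were 4.16 and 5.06 CPM with vehicle and 4.50 and 4.55 CPM with BaP. What set 12 h apart was the low vehicle pair, since the other 3 groups had means between 4.42 and 4.61 CPM. The log2 fold change at 12 h was 0.60 ± 0.27 (0.03 to 1.18, adjusted p = 0.23), and at 24 h it was 0.01 ± 0.29 (-0.61 to 0.62, adjusted p = 1). In vehicle cells the 24 h level exceeded the 12 h level by 0.64 ± 0.28 (adjusted p = 0.27).

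REV1 encodes a deoxycytidyl transferase and the scaffold on which the inserting polymerases and zeta meet. It gave 20.4 and 23.5 CPM with vehicle and 25.6 and 26.2 CPM with BaP at 12 h. At 24 h vehicle libraries gave 25.6 and 18.0 CPM and BaP libraries 27.4 and 21.1 CPM. The replicates at 24 h differed from each other by more than the groups did. Log2 fold changes were 0.24 ± 0.17 (-0.12 to 0.59, adjusted p = 0.50) and 0.06 ± 0.19 (-0.34 to 0.45, adjusted p = 0.91).

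REV3L, the catalytic subunit of polymerase zeta, gave 36.2 and 44.3 CPM with vehicle and 45.7 and 50.4 CPM with BaP at 12 h. At 24 h the values were 40.4 and 34.1 CPM and 41.3 and 32.2 CPM. The groups were separate at 12 h and lay inside each other at 24 h. Log2 fold changes were 0.26 ± 0.14 (-0.05 to 0.56, adjusted p = 0.36) and -0.09 ± 0.16 (-0.42 to 0.25, adjusted p = 0.82). Leaving out the transcript placed under FLJ22447 gave 29.6 and 36.6 CPM against 39.4 and 43.5 CPM at 12 h and changed no call. REV3L spans 185 kb in GENCODE 29. Among the 1473 tested genes of 100 to 200 kb, the median log2 value was -0.09 and 11.3% were lower at 12 h, against 4.84% lower over all genes. RAD18 at 188 kb falls in the same class. Neither of these long members was lower at 12 h, and neither were most genes of the class.

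MAD2L2, also called REV7, bridges REV3L to REV1 and has a separate role in shielding broken ends. It gave 55.6 and 44.2 CPM with vehicle and 61.3 and 51.0 CPM with BaP at 12 h, then 45.4 and 45.0 CPM and 42.4 and 50.4 CPM at 24 h. The groups overlapped at both times. Log2 fold changes were 0.17 ± 0.14 (-0.13 to 0.46, adjusted p = 0.59) and 0.07 ± 0.15 (-0.25 to 0.38, adjusted p = 0.86), intervals about as narrow as those of POLH. MAD2L2-207, a coding transcript, held 92.6% of its counts.

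RAD18 is the ligase that starts the pathway by marking PCNA. Vehicle libraries gave 11.6 and 15.1 CPM and BaP libraries 12.3 and 14.6 CPM at 12 h, so the BaP pair lay inside the vehicle pair. At 24 h both vehicle libraries gave 11.6 CPM and the BaP libraries 9.0 and 14.2 CPM. The lower of these came from the shallowest library, where RAD18 had 24 reads. Log2 fold changes were 0.02 ± 0.19 (-0.39 to 0.43, adjusted p = 0.97) and 0.12 ± 0.22 (-0.34 to 0.58, adjusted p = 0.81).

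UBE2A and UBE2B are the paired human versions of yeast RAD6, either of which serves RAD18. UBE2A gave 19.7 and 34.0 CPM with vehicle and 41.2 and 43.9 CPM with BaP at 12 h, and 29.1 and 28.5 CPM against 27.4 and 37.4 CPM at 24 h. UBE2B gave 15.1 and 20.8 CPM against 23.9 and 24.6 CPM at 12 h, and 19.3 and 20.8 CPM against 27.4 and 26.5 CPM at 24 h. The BaP libraries of UBE2B were above those of vehicle at both times, those of UBE2A at 12 h only. At 24 h the noncoding transcript UBE2B-202 gave 3.27 and 1.67 CPM with vehicle and 11.2 and 8.01 CPM with BaP. The main coding transcript UBE2B-201 gave 8.94 and 12.2 against 14.2 and 11.8 CPM, which overlapped. At 12 h UBE2B-201 did not overlap (10.2 and 8.53 against 11.6 and 12.8 CPM) and UBE2B-202 did. For UBE2A the log2 fold change was 0.66 ± 0.22 (0.18 to 1.14, adjusted p = 0.10) at 12 h and 0.23 ± 0.24 (-0.29 to 0.75, adjusted p = 0.65) at 24 h. For UBE2B it was 0.44 ± 0.16 (0.10 to 0.78, adjusted p = 0.11) and 0.43 ± 0.17 (0.06 to 0.79, adjusted p = 0.18). At 12 h the unlisted UBE2A transcript gave 10.7 and 18.5 CPM with vehicle and 25.6 and 27.5 CPM with BaP. The listed coding transcript UBE2A-202 gave 6.94 and 13.9 against 13.7 and 13.9 CPM, which overlapped. No UBE2A fold change was refitted without the unlisted transcript.

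The 12 h values of both genes turn on vehicle replicate 1, their lowest library. Without it the UBE2A log2 fold change was 0.33 (adjusted p = 0.33) and that of UBE2B 0.23 (0.50). Without vehicle replicate 2 they were 1.09 (adjusted p = 0.002) and 0.67 (0.028), both past the threshold. With 1 vehicle library left at 12 h, that library was assumed to vary like those of the other groups, here and wherever 1 library is left out. UBE2A also passed with the replicate number as a block (adjusted p = 0.027) and with no filter on low counts (0.00047). Over all alternatives its adjusted p ran from 0.00047 to 0.35, and that of UBE2B from 0.028 to 0.50.

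POLL, polymerase lambda, gave 28.6 and 20.8 CPM with vehicle and 27.0 and 27.9 CPM with BaP at 12 h. At 24 h it gave 24.2 and 25.7 CPM against 21.4 and 27.7 CPM. The groups overlapped at both times, with log2 fold changes of 0.15 ± 0.16 (-0.19 to 0.50, adjusted p = 0.69) and 0.04 ± 0.18 (-0.33 to 0.42, adjusted p = 0.93).

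**Figure D3:**
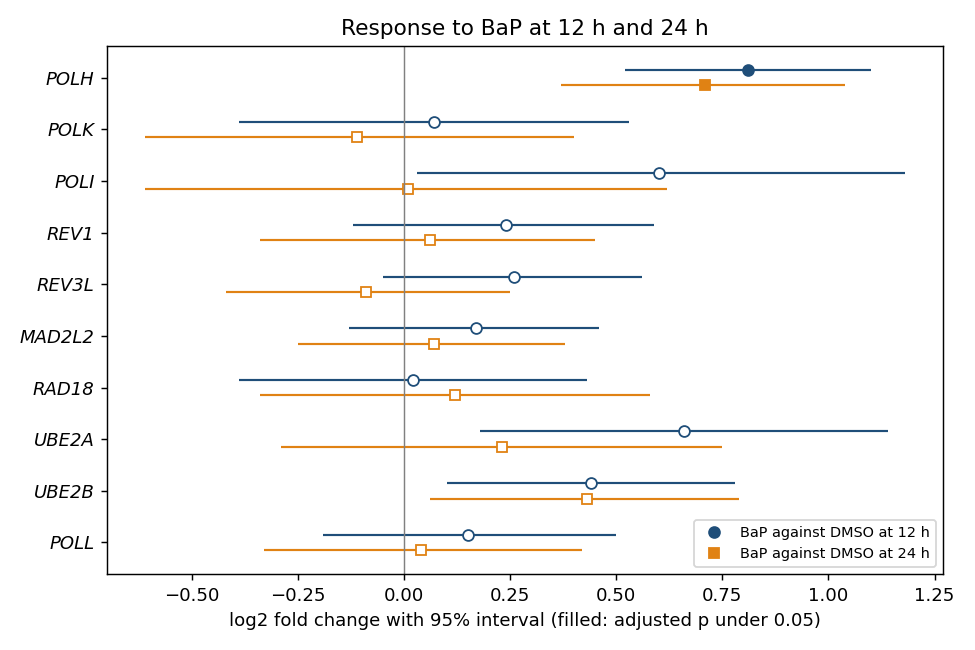
Log2 fold change of BaP against vehicle with its 95% interval for each gene at 12 h (circles) and 24 h (squares), filled where the adjusted p is under 0.05. POLH carries both filled symbols, while the intervals of UBE2B at both times and of POLI and UBE2A at 12 h lie above 0 without passing.

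Read across the set, all 10 members had a positive log2 fold change at 12 h with a median of 0.25, when the median over all genes was 0.02 and 52.1% were positive. In 6 of them, POLH, POLI, REV1, REV3L, UBE2A and UBE2B, both BaP libraries lay above both vehicle libraries, as did 25.4% of all genes. At 24 h the median was 0.06, 8 were positive, and POLH and UBE2B were the 2 without overlap, against 23.2% of all genes. An unadjusted p under 0.05 was reached by 4 members of 10 at 12 h and 2 at 24 h. Of all 14746 genes tested, 2892 and 2948 reached it. The difference between the 2 responses passed in 0 members, and 0 had an unadjusted p under 0.05, where 0.543% of all genes passed and 1403 had such a p. Its median was -0.14, and the lowest values were those of POLI (-0.60 ± 0.40, adjusted p = 0.69), UBE2A (-0.43 ± 0.32, 0.73) and REV3L (-0.34 ± 0.22, 0.66). Between the vehicle groups 0 members passed, where 3.28% of all genes did. There 2 members had an unadjusted p under 0.05 (POLH and POLI, in opposite directions), as did 2415 of the 14746 genes tested. The members share the same libraries, so their directions are not independent of each other.

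Transcript usage, the division of a gene's reads among its transcripts with at least 10% of them, could be tested in 8 members. POLH and MAD2L2 have only 1 such transcript each. By edgeR's transcript usage test 0 of 8 passed at 12 h, where 0.289% of 7618 genes did, and 0 of 8 at 24 h, where 0.761% did. The lowest unadjusted p was 0.12 (POLK) at 12 h and 0.078 (UBE2B) at 24 h, and the lowest adjusted p was 1 and 0.53. Estimates of the split varied widely between libraries, and the main pair of coding REV1 transcripts took 0 to 69.0% and 0 to 65.1% of its counts. Without replicate 1 of BaP at 24 h, 2 members, REV3L and RAD18, passed at 24 h (lowest adjusted p = 0.0045). The BaP arm was then 1 library, in which REV3L-202 and RAD18-203 were both at 0, and the spread came from the other groups.

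The surrounding machinery was read from a list of 35 other damage tolerance genes, covering the clamp and its loader, ubiquitin writers and erasers, fork remodellers and other polymerases. All 35 were tested. At 12 h 0 were higher and 1 was lower, against 3.41% and 4.84% of all genes, over log2 values from -1.05 to 0.38 around a median of 0.03. At 24 h 3 were higher and 0 lower, over values from -0.51 to 0.93 around a median of -0.09, against 3.11% higher and 2.2% lower of all genes. PCNA, the clamp that RAD18 marks, gave 249 and 286 CPM with vehicle and 327 and 355 CPM with BaP at 12 h, without overlap. Its log2 fold change was 0.35 ± 0.13 (adjusted p = 0.12), and at 24 h it was 0.21 with means of 191 and 220 CPM (adjusted p = 0.40). USP1, which removes the ubiquitin from PCNA, had log2 fold changes of 0.19 (adjusted p = 0.66) and -0.37 (0.38). POLD3, a subunit shared by polymerases delta and zeta, had 0.01 (0.99) and -0.34 (0.43), and POLQ, polymerase theta of microhomology end joining, 0.23 (0.59) and 0.10 (0.86).

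ZRANB3, a translocase that binds ubiquitinated PCNA and remodels forks, fell at 12 h. Vehicle libraries gave 7.97 and 11.1 CPM and BaP libraries 4.30 and 4.85 CPM. The log2 fold change was -1.05 ± 0.22 (adjusted p = 0.0067), and at 24 h -0.32 (adjusted p = 0.48). ZRANB3 spans 394 kb, and 33.6% of the 828 tested genes over 200 kb were lower at 12 h. Its 12 h call was lost without BaP replicate 1 (adjusted p = 0.087), without vehicle replicate 2 (0.069) and after thinning (0.29), within a range of 0.00017 to 0.29 over the alternatives.

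At 24 h the genes that rose were UFD1, POLB and POLD4. UFD1, a cofactor of the VCP segregase that extracts ubiquitinated proteins from chromatin, gave 43.6 and 36.8 CPM with vehicle and 59.3 and 64.8 CPM with BaP (log2 0.63 ± 0.13, adjusted p = 0.011). POLB, the base excision repair polymerase beta, gave 10.6 and 8.81 CPM against 15.8 and 17.2 CPM (0.76 ± 0.19, adjusted p = 0.026). POLD4, the smallest subunit of polymerase delta, gave 18.1 and 18.6 CPM against 25.1 and 35.1 CPM (0.78 ± 0.19, adjusted p = 0.026). None of the 3 passed at 12 h. Leaving out BaP replicate 2, vehicle replicate 1 or vehicle replicate 2 ended each of these calls, with adjusted p of 0.12, 0.055 and 0.17 for UFD1, 0.30, 0.12 and 0.22 for POLB and 0.47, 0.24 and 0.16 for POLD4. Thinning and the DESeq2 Wald test also ended the calls of POLB (0.075 and 0.12) and POLD4 (0.094 and 0.07), as did fitting only the libraries of the comparison for POLB (0.058). Over all alternatives adjusted p ran from 0.0015 to 0.17 for UFD1, 0.012 to 0.30 for POLB and 0.0012 to 0.47 for POLD4. The highest log2 value of the list at 24 h, 0.93 ± 0.51 for the low-level polymerase POLN, did not pass (adjusted p = 0.33).

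**Figure D4:**
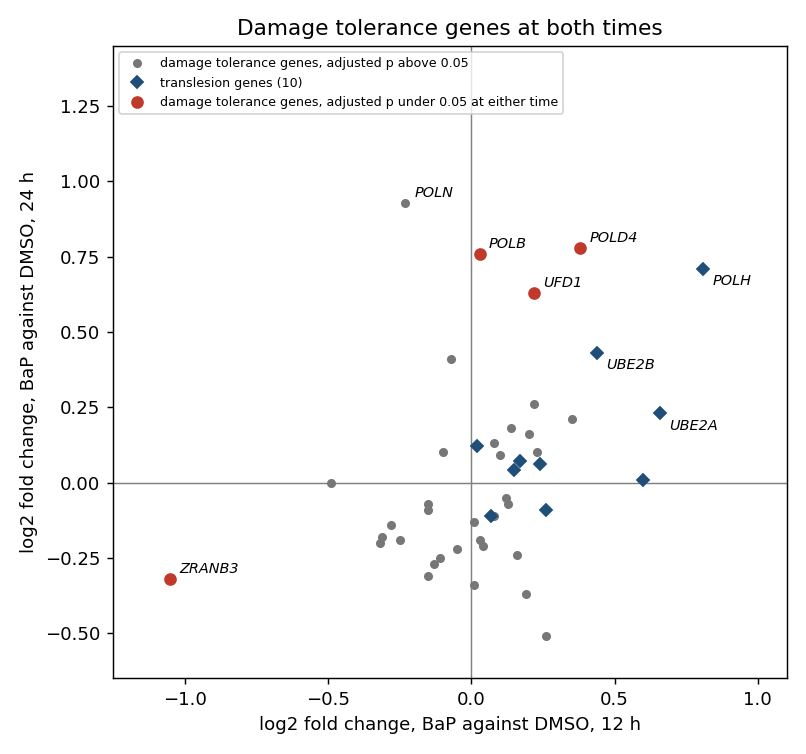
Log2 fold change of BaP against vehicle at 12 h (horizontal axis) and 24 h (vertical axis) for the 10 translesion genes (blue diamonds) and the 35 other damage tolerance genes (red where the adjusted p is under 0.05 at either time, otherwise grey). POLH stands at 0.81 and 0.71, ZRANB3 at -1.05 and -0.32, and most other points lie near 0 on both axes.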

How the data were processed

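RNA from 8 HepG2 libraries was read from RSEM tables deposited by the authors, per gene and per transcript. The deposited expected counts (estimated read numbers, not normalised) and the deposited fraction of transcript molecules were used as the authors made them. Bowtie 0.12.7, RSEM 1.1.7 and edgeR are named in the submitters' processing notes. No genome build is named in the labels or headers used. Depth ran from 2592272 to 16533490 expected counts per library. Expected counts were rounded and fitted over all 8 libraries with edgeR 4.0.16 in R 4.3.3 (TMM scaling, filterByExpr with a minimum count of 10 and minimum total of 15, robust quasi-likelihood F test, two-sided), and p-values were adjusted by Benjamini-Hochberg over all genes with a threshold of 0.05. CPM were taken from these counts with TMM-scaled library sizes. Standard errors are the log2 fold change over the square root of F. Transcript usage was tested with diffSpliceDGE, which was run on transcripts with at least 10% of their gene's counts. DESeq2 1.42.0 was an alternative. The fit was tested on simulated data. Gene names came from a symbol table, and spans, transcript names and overlaps from GENCODE 29 by ID. Promoter windows are from RefSeq, GRCh38.p14.

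The members and the lists were chosen with earlier results of these data known. Genes named are all members, PCNA, USP1, POLD3, POLQ and every listed tolerance gene past the threshold in a BaP comparison (up to 8 by p). The 5 genes most like the member with the smallest p at 12 h and the exposure checks were named too. POLN and the lost calls were added after their values were seen. Intervals cover the spread between these libraries only.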

Additional observations from a re-analysis of the deposited data

How the results depend on the processing

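With 2 libraries a group, a change smaller than the intervals printed could not be told from 0, and POLI and POLK rest on few reads. The number of members called at 12 h was 1, with 2 under no filter on low counts and 2 under the replicate block, and 1 to 3 when 1 library was left out. At 24 h it was 1, with 0 after thinning to the shallowest library and 0 to 1 when 1 library was left out. For transcript usage at 24 h the count was 0 to 2 when 1 library was left out, and for the difference between times and the vehicle groups the count of members called was 0 under every alternative run. The main fit held no block, because the labels do not tell whether libraries with equal numbers belong together across groups. Deviations of same-numbered BaP and vehicle libraries correlated at 0.424 at 12 h and 0.0644 at 24 h. Between the BaP groups the correlation was -0.239, and the remaining pairs of groups ran from -0.0739 to 0.0174. The 12 h value was the highest, and the block moved the 12 h count from 1 to 2 by adding UBE2A. Whether same-numbered libraries are pairs was not tested.

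The fold changes that turned direction belonged to comparisons in which the gene did not pass, and the cause was not tested. At 24 h POLI gave log2 values of -0.01 with DESeq2 size factors, -0.02 with no filter, -0.02 with the DESeq2 Wald test, -0.07 with the replicate block and -0.05 after thinning. Thinning also gave -0.09 for POLK at 12 h and, at 24 h, -0.01 for REV1, 0.01 for REV3L and -0.06 for RAD18. With 1 library left out, log2 values at 12 h ran from -0.1 to 0.24 for POLK, -0.01 to 0.34 for MAD2L2, -0.15 to 0.21 for RAD18, -0.08 to 0.4 for POLL and -0.12 to 0.17 for POLB. At 24 h they ran from -0.3 to 0.04 for POLK, -0.16 to 0.12 for POLI, -0.13 to 0.37 for REV1, -0.23 to 0.13 for REV3L, -0.1 to 0.15 for MAD2L2, -0.37 to 0.28 for RAD18, -0.08 to 0.37 for UBE2A and -0.22 to 0.15 for POLL. Leaving out the REV3L transcript placed under FLJ22447 or the unlisted UBE2A transcript, and the alternatives for ZRANB3, UFD1, POLB, POLD4 and PCNA, were chosen after seeing the data. The UBE2A transcript was left out of the TPM levels only, not of a fold change.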
